A study of Oryza sativa with 18 samples.

Results

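R-loop peaks in the outermost chromosome ends of rice were described here as 2695 of the 89277 regions (3.02%) that held a peak in at least 1 of 17 peak lists. Peaks of the 17 lists were merged into regions wherever they shared 1 bp or more. A region counted as a tip region if its midpoint lay in the first 0.5 Mb of chromosomes 1 to 10 (10 low-coordinate tips), or within 0.5 Mb of the highest peak end seen on each of the 12 chromosomes (12 high-coordinate tips). The 22 tips span 11 Mb and hold 2695 regions with no filter on strength. The interior, over 0.5 Mb from both ends, spans 361 Mb and holds 86432 regions, and the neighbouring windows, 0.5 to 1.0 Mb from the same 22 ends, hold 2653. The first 0.5 Mb of chromosomes 11 and 12, with 150 regions, belongs to neither the tips nor the interior.

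All 18 libraries came from wild-type (WT) seedlings of Oryza sativa, profiled by ISRH-seq. In this assay, RNase H and DNA polymerase I label R-loops with biotin on sonicated genomic DNA, and the captured strand is sequenced. Of the libraries, 13 carry an amount of input DNA in their titles, with 1 library at 100 ng and 2 each at 250 ng, 500 ng, 1 µg, 3 µg, 5 µg and 8 µg, 2 are titled salt (150 mM NaCl, 3 days), 2 CK(salt) and 1 RNaseH, which is left out of the merge. The treatment label of the CK(salt) libraries reads as that of the salt libraries, so the groups rest on the titles. For the salt, CK(salt) and RNaseH libraries the sources used here give no input amount, and for the RNaseH library not the step of its treatment. Libraries of a group are not said to come from separate plants, so each p-value measures the spread between libraries, which may be technical, and all of them read 1 genome.

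An R-loop is an RNA-DNA hybrid beside the displaced DNA strand, formed mostly as a nascent transcript anneals back to its template. RNase H digests the RNA of such hybrids, which is why it serves both to map and to remove them. In rice, genes are denser toward the distal arms, whereas repeats gather around centromeres, and ribosomal RNA genes sit in an array near the short-arm end of chromosome 9. Rice coordinates start by convention at the short-arm end, so low-coordinate tips are taken to be short-arm ends, although no label says so. The sources used here do not name the genome build of the lists, and the gene table at hand belongs to another assembly, so regions are named by position only, and no gene or sequence is given.

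The lists held from 14845 peaks at 100 ng to 70518 in 8 µg replicate 1. Sequencing depth, read as the background coverage that the caller's fold and p-value imply, was 0.881 fragments per position at 100 ng, 4.82 to 7.84 from 250 ng to 5 µg and 11.4 and 12.7 at 8 µg. Salt libraries had a coverage of 6.74 and 3.88, against 8.60 and 4.30 for CK(salt). The 100 ng library thus stands apart in depth and in peak number, and results that rest on it are given with and without it.

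The lists reached close to the outer edge of most chromosomes. The outermost tip region lay within 2 kb of the edge at 20 of 22 tips and within 1 kb at 14. At the high-coordinate tips a peak at the edge follows from the way that edge was set, so the informative figure is that 8 of 10 low-coordinate tips had a region within 2 kb of base 1. The other 2 were the low tips of chromosome 6, with its first region at 5.85 kb, and of chromosome 9, with its first at 39.1 kb. That count merges all 17 lists. Over the 13 input libraries, the median distance of the nearest peak also exceeded 2 kb at the low tips of chromosomes 4 (6.64 kb), 5 (5.87 kb) and 10 (2.84 kb). It stayed below 2 kb at those of chromosomes 1, 2, 3, 7 and 8. Of these 22 outermost regions, 2 had a peak in all 17 lists, against 12.9% of tip regions and 10.6% of all regions. They were chr1:989-2125 and chr3:991-1651, both at low tips.

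The outermost region of chromosome 3 was the stronger of that pair, with a median score percentile of 72.3 within its lists, against 64.4 for that of chromosome 1. On chromosome 3 the deposited fold, the ratio of pileup to local background at the summit, had a lowest, median and highest value of 3.73, 6.55 and 8.51 over the input lists, and was 6.75 and 9.05 under salt and 9.0 and 8.08 in CK(salt). The corresponding folds for chr1:989-2125 were 3.73, 6.27 and 9.53 over the input lists, 3.10 and 4.72 under salt and 5.00 and 4.91 in CK(salt). A fold belongs to its own list and is not compared between lists here. At the other extreme, the outermost regions of the high tips of chromosomes 8 (chr8:28441768-28441977) and 11 (chr11:29018048-29018281) rested on 1 list each. The median outermost region had a peak in 11 of the 17 lists.

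The 0.5 Mb limit fell between closely spaced regions. The last regions inside the 0.5 Mb limit were chr8:27941959-27942624 (499.7 kb, 17 lists), chr2:35436423-35436854 (499.6 kb, 4 lists) and chr7:29197812-29198222 (499.6 kb, 2 lists). The nearest left out were chr7:499815-500484 (500.1 kb, 7 lists), chr2:35435913-35436280 (500.2 kb, 5 lists) and chr4:35001200-35002528 (500.4 kb, 17 lists).

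Tips were denser in peaks than the interior in most input libraries. The mean was 148 ± 42.3 peaks per Mb at the tips and 134 ± 36.0 per Mb in the interior (SD, n = 13). Within libraries, the log2 ratio of tip to interior density averaged 0.14 ± 0.098 (SD, n = 13), a ratio of 1.10, and was above 0 in 11 of 13 libraries (two-sided exact sign-flip permutation test, p = 0.00171, Benjamini-Hochberg adjusted p = 0.0026 over 8 such tests). The spread between amounts, from 48.2 to 209.8 peaks per Mb at the tips, is far larger than this difference, which was therefore taken within each library. With every list shortened to its 14845 strongest peaks the ratio was larger (log2 0.24, permutation adjusted p = 0.0044), and with tips of 1 Mb it was smaller (log2 0.087, adjusted p = 0.0033). The codes in the peak names fall into stretches of successive numbers, here called code runs, which no label describes as a batch. With libraries averaged within code runs, 7 values remained and the ratio was log2 0.15 (exact permutation p = 0.031, adjusted p = 0.05). None of the 8 tests over input libraries then had an adjusted p below 0.05. Tests on so few values have little power, and the recovery test given below, on 5 runs, could not pass.

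The value in each library followed no single order with amount. The 100 ng library had 48.2 peaks per Mb at the tips and 39.6 per Mb in the interior, the highest ratio of the 13 (log2 0.28). The 250 ng libraries had 115.1 and 121.7 per Mb at the tips and 117.5 and 121.5 per Mb in the interior, which are nearly equal (log2 -0.030 and 0.0030). The 500 ng libraries differed from each other, with log2 ratios of 0.12 and -0.0038, as did the 1 µg libraries with 0.20 and 0.078. From 3 µg upward all 6 libraries lay between 0.15 and 0.23, and the 8 µg libraries had 209.8 and 200.4 per Mb at the tips and 188.6 and 176.3 per Mb in the interior.

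**Figure D1:**
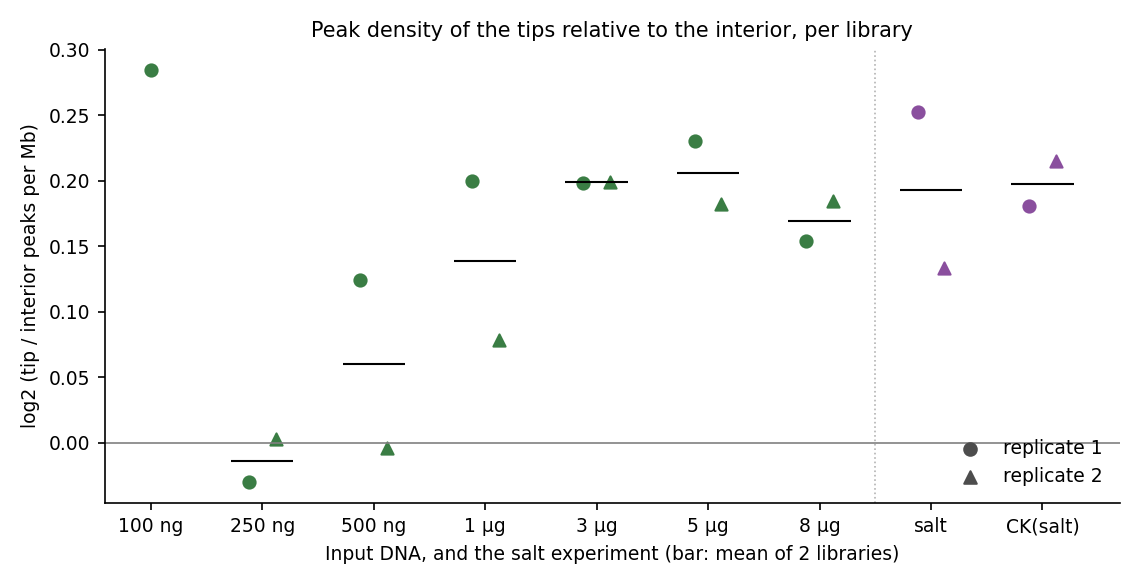
Log2 ratio of peak density (peaks per Mb) at the 22 tips over the interior in each library, by input amount and for the salt experiment. Points are libraries, with circles for replicate 1 and triangles for replicate 2, and bars are means of 2 libraries. The 250 ng libraries sit at 0, the libraries from 3 µg to 8 µg between 0.15 and 0.23, and the single 100 ng library highest at 0.28.

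Over all 13 libraries, the relation of this ratio to log2 input amount missed the threshold (Pearson r = 0.39, permutation p = 0.185, adjusted p = 0.370 over the relations with amount and with depth; Spearman rho = 0.28, p = 0.348). That result turns on the 100 ng library. Without it r was 0.82 (permutation p = 0.00138; rho = 0.64, p = 0.0304, n = 12), and without it and 8 µg replicate 1 or replicate 2, which are together the farthest from the median amount, r was 0.85 or 0.82 (permutation p = 0.00135 and 0.00321). The 100 ng library is also the shallowest, and at equal list length over all 13 r was 0.61 (permutation p = 0.0282). Within the code runs r was 0.71 (exact permutation p = 0.139, n = 8 libraries in runs with several amounts). Against log2 background coverage, r was -0.21 (permutation p = 0.521; rho = 0.13, p = 0.685), and 0.41 (p = 0.177) without the 100 ng library.

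The tips also exceeded the sequence next to them. The neighbouring windows averaged 138 ± 38.1 peaks per Mb over the 13 libraries, and the log2 ratio of tips to neighbours was 0.11 ± 0.089 (a ratio of 1.08), above 0 in 10 of 13 libraries (exact sign-flip permutation test, adjusted p = 0.0026). At equal list length it was 0.19 (permutation adjusted p = 0.017). The share of bases under peaks, which combines number and width, was 7.71 ± 2.37% at the tips and 6.91 ± 2.04% in the interior, with a log2 ratio of 0.16 ± 0.12 that was above 0 in 12 of 13 libraries (permutation adjusted p = 0.0026). With tips of 1 Mb this coverage ratio was 0.10 (permutation adjusted p = 0.00098).

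Density did not fall off evenly from the tips inward. Over the 22 ends together, the log2 ratio to the interior was 0.14 ± 0.098 in the outer 0.5 Mb, 0.032 ± 0.026 in the next 0.5 Mb, 0.17 ± 0.028 from 4.0 to 4.5 Mb and 0.15 ± 0.024 from 5.0 to 5.5 Mb (SD, n = 13). The tips therefore stood above their neighbours and not above every window of the distal arms. The spread between libraries was also widest at the tips.

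**Figure D2:**
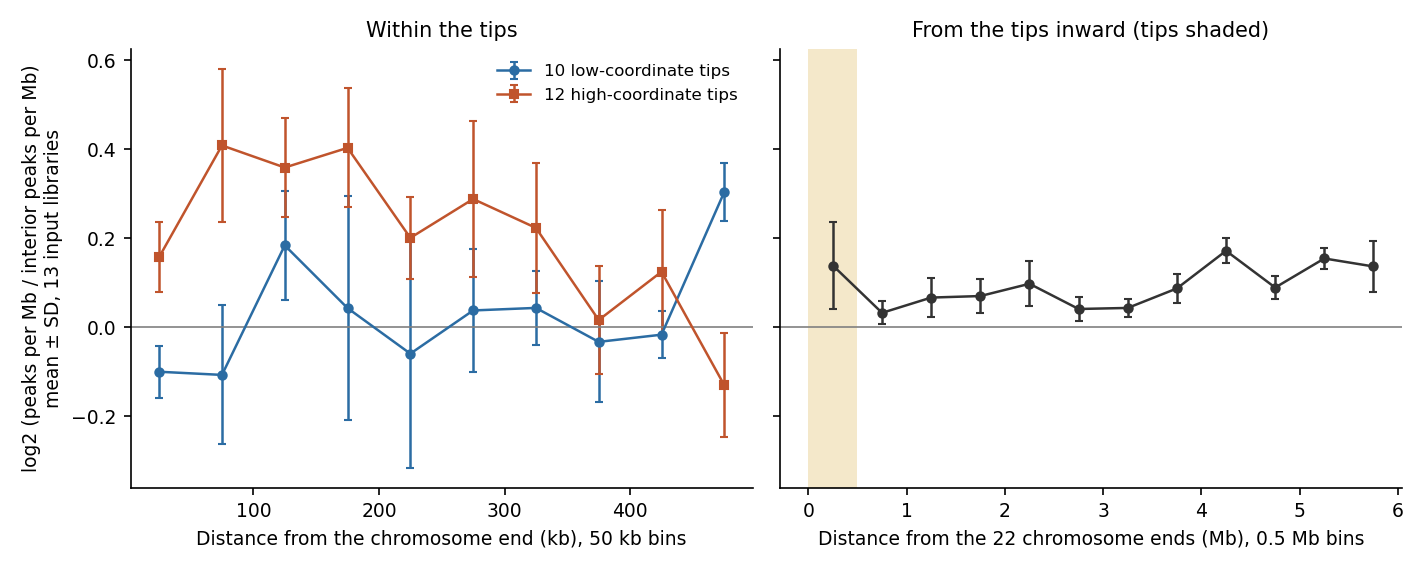
Log2 ratio of peak density to the interior density of the same library, against distance from the chromosome end, as mean ± SD over the 13 input libraries. Left, 50 kb bins within the tips, for the 10 low-coordinate tips (blue) and the 12 high-coordinate tips (orange): between 50 and 100 kb the low tips are at -0.11 and the high tips at 0.41. Right, 0.5 Mb bins over all 22 ends, with the tips shaded: 0.14 at the tips, 0.032 in the next bin and 0.17 from 4.0 to 4.5 Mb.

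Low-coordinate tips were poorer in peaks than high-coordinate tips of the same chromosomes. Over chromosomes 1 to 10, low tips had 138 ± 39.5 and high tips 156 ± 45.1 peaks per Mb (SD, n = 13). The log2 ratio of low to high was -0.18 ± 0.044 and lay below 0 in 13 of 13 libraries (exact sign-flip permutation test, p = 0.000244, the smallest that 13 libraries allow, adjusted p = 0.00195). It was also negative in each salt library (-0.21 and -0.11) and each CK(salt) library (-0.20 and -0.13). Without chromosome 9 it was -0.12 (permutation adjusted p = 0.00098), and with tips of 0.25 Mb it was -0.28 (adjusted p = 0.00098).

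Against the interior, the same contrast appears as little excess on the low side and a larger one on the high side. The 10 low tips had a log2 ratio of 0.039 ± 0.093, above 0 in 9 of 13 input libraries, and of 0.11 ± 0.094, above 0 in 10 of 13, without chromosome 9. The 12 high tips had 0.22 ± 0.10, above 0 in 13 of 13. The sides lay furthest apart between 50 and 100 kb from the edge. There and in the next 2 bins of 50 kb, log2 ratios were -0.11, 0.18 and 0.043 at the low tips, and 0.41, 0.36 and 0.40 at the high tips, where each was above 0 in 13 of 13 libraries. The order turned round in the innermost bin, from 450 to 500 kb, with 0.30 at the low tips and -0.13 at the high tips. Farther inward, the low side again lay below the high side in mean, in each 0.5 Mb bin from 500 to 6000 kb. Log2 ratios were -0.026 on the low side and 0.14 on the high side from 1000 to 1500 kb. They were 0.050 and 0.086 from 1500 to 2000 kb, and 0.084 and 0.24 from 4000 to 4500 kb. The contrast was thus not confined to the tips, and beyond them it was not tested.

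By chromosome, the mean log2 ratio of low to high was below 0 on 9 of 10 chromosomes, and the low tip was below the high tip in all 13 libraries on 3 of them, chromosomes 6, 9 and 10. By mean density the low tip was lower on 8 of 10, since on chromosome 7 the means were nearly equal, at 156.3 peaks per Mb at the low tip and 156.2 per Mb at the high tip. The log2 ratio of low to high was -0.91 ± 0.14 on chromosome 9, -0.37 ± 0.24 on chromosome 10 and -0.29 ± 0.15 on chromosome 6 (SD, n = 13). On chromosomes 1, 7 and 8 it was between -0.032 and -0.025, within the spread between libraries. Chromosome 5 went the other way in mean (0.12 ± 0.19), with the low tip higher in 9 of 13 libraries.

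The outermost 50 kb was poorer than the rest of the tips. It had 139 ± 38.4 peaks per Mb, against 149 ± 42.8 per Mb from 50 to 500 kb, a log2 ratio of -0.10 ± 0.079 that was below 0 in 11 of 13 libraries (exact sign-flip permutation test, adjusted p = 0.0026). This result rested on chromosome 6, without which the log2 ratio was -0.033 (permutation adjusted p = 0.146). Without chromosome 1 it was -0.18 (permutation adjusted p = 0.00098), and at equal list length -0.20 (adjusted p = 0.0013). Salt libraries had log2 ratios of -0.084 and 0.083, and CK(salt) libraries -0.15 and -0.15. The outermost 50 kb was not the poorest bin, since density from 350 to 400 kb was 133 ± 37.1 peaks per Mb over the input libraries.

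Most of the 22 tips differed from the next in rank by less than the spread between libraries. The densest were the high tips of chromosome 12 with 177 ± 49.1, chromosome 8 with 167 ± 44.7 and chromosome 3 with 167 ± 54.7 peaks per Mb (SD, n = 13). Chromosome 12 high exceeded chromosome 8 high by 10.0 ± 13.4 peaks per Mb, higher in 10 and lower in 2 of 13 libraries, and each step from there to chromosome 11 high was of 0.154 to 4.77 per Mb, smaller than its SD. The lowest 3 were the low tips of chromosome 6 with 122 ± 31.0, chromosome 10 with 121 ± 41.6 and chromosome 9 with 77.2 ± 20.4 peaks per Mb. The step above them, from chromosome 11 high to chromosome 6 low, was 15.4 ± 14.4 per Mb (higher in 11 of 13), and the last, from chromosome 10 low to chromosome 9 low, was 43.5 ± 22.3 per Mb (higher in 12 of 13, tied in the other).

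Set against interior windows of the same length, the tips lay within the common range. Of the 22 tips, 19 were above the interior density in mean. No matching share of interior windows is given, but their median of 139 peaks per Mb also exceeded the mean interior density of 134. In all 13 input libraries, 7 tips were above the interior density, whereas 26.4% of 716 interior windows of 0.5 Mb were above it in all 13. Those 7 tips were the high tips of chromosomes 2, 4, 7, 8 and 12 and the low tips of chromosomes 7 and 8. Only the low tip of chromosome 9 was below the interior in all 13, against 23.3% of interior windows. The highest tip mean, at chromosome 12 high, was reached by 23 of the 716 interior windows (3.21%), and 35 (4.89%) were as low as chromosome 9 low. Interior windows ran from 20.5 to 200 peaks per Mb, with a median of 139.

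**Figure D3:**
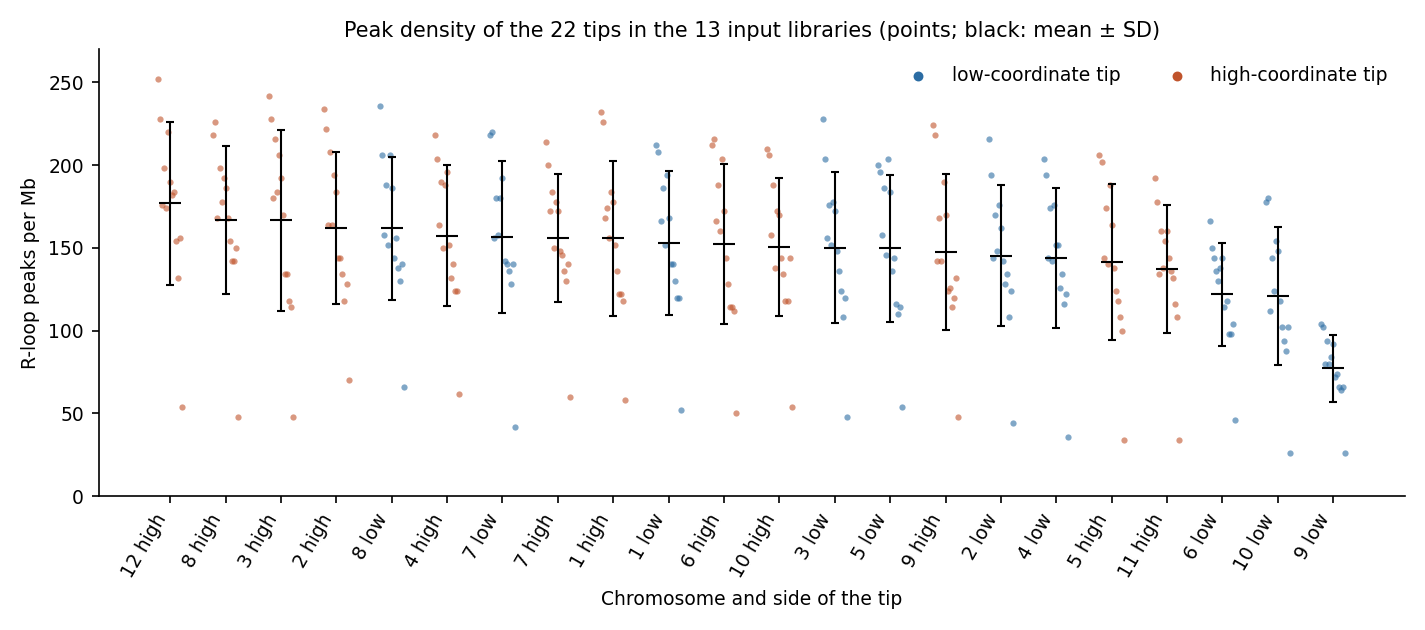
Peak density of each of the 22 tips (peaks per Mb) in the 13 input libraries, ordered by mean. Points are libraries, blue for low-coordinate and orange for high-coordinate tips, and black marks are mean ± SD. Chromosome 12 high is on the left at 177 ± 49.1 and chromosome 9 low on the right at 77.2 ± 20.4. The lowest point of each column is the 100 ng library.

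The low tip of chromosome 9 was the sparsest place among the tips. It held 26 peaks per Mb at 100 ng, 64 and 66 at 250 ng, 74 and 66 at 500 ng, 92 and 72 at 1 µg, 80 and 84 at 3 µg, 80 and 94 at 5 µg and 104 and 102 at 8 µg. Salt libraries had 50 and 50, and CK(salt) libraries 82 and 66. It was the lowest of the 22 tips in all 17 lists, tied with the low tip of chromosome 10 at 100 ng.

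Its regions thinned toward the edge. From the edge inward, successive bins of 100 kb held 4, 10, 15, 15 and 23 regions on chromosome 9, while the other 21 tips averaged 24.6, 27.1, 24.8, 24.4 and 24.3. The bin farthest in thus matched the other tips. Chromosome 9 lay below the lowest count of the other 21 tips in the outermost bin (4 against 6), from 100 to 200 kb (10 against 16) and from 300 to 400 kb (15 against 16), and inside their range in the other two bins. Its 67 regions were otherwise of usual size and recurrence, with a median width of 594 bp and 8 (11.9%) present in all 17 lists. The position of the ribosomal RNA array named above was not joined to these coordinates.

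Gaps without any region in any of the 17 lists were short at most tips. The longest gap per tip ran from 12.9 kb at chromosome 12 high to 75.6 kb at chromosome 9 low (chr9:165591-241202). Gaps over 50 kb occurred at 2 further tips, chromosome 11 high (chr11:28520487-28574085, 53.6 kb) and chromosome 10 low (chr10:225306-276452, 51.1 kb). These 3 tips are among the 4 with the fewest peaks per Mb.

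Tip regions recurred across lists somewhat more often than interior regions. Of 2695 tip regions, 348 (12.9%) had a peak in all 17 lists, against 9098 of 86432 (10.5%) in the interior and 10.6% of all regions. At the other end, 344 tip regions (12.8%) had a peak in 1 list only, against 14.3% of interior regions. The median tip region was found in 10 lists and the median interior region in 8. Regions of the neighbouring windows were at 10.7% in all 17 lists, like the interior. Merged regions share the libraries they come from, so these shares carry no test.

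**Figure D4:**
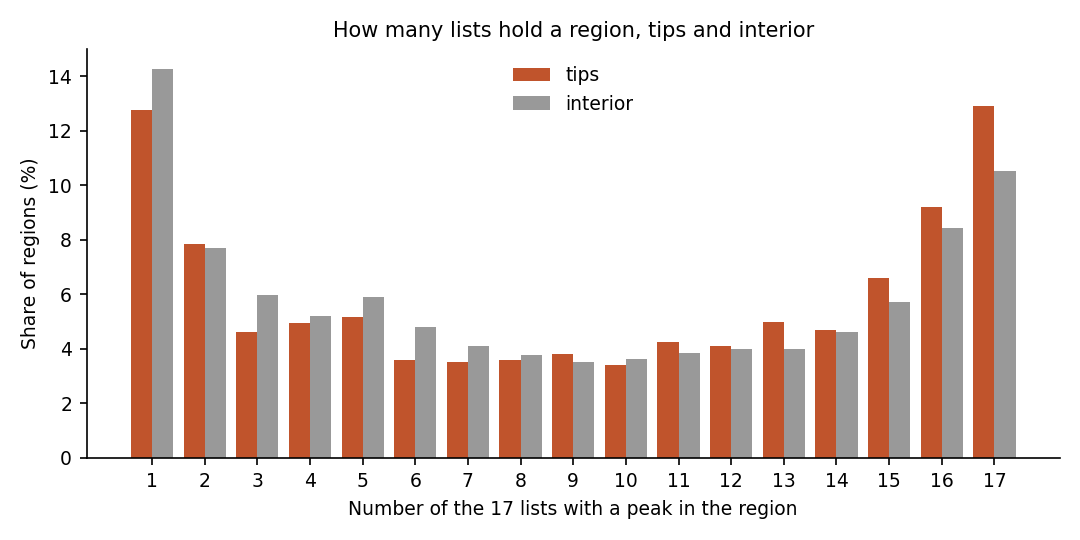
Share of regions (%) by the number of the 17 lists that hold a peak in them, for 2695 tip regions (orange) and 86432 interior regions (grey). Both are highest at the extremes, and tips exceed the interior at 17 lists (12.9% and 10.5%) and fall short at 1 list (12.8% and 14.3%).

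Recurrence went with width. Tip regions had a median width of 580 bp, against 552 bp in the interior. Those in all 17 lists had a median of 1074 bp and those in 1 list 254 bp, and the interior medians were alike at 1037 and 253 bp. Broad regions of at least 1200 bp made up 329 of the tip regions (12.2%) and 10.7% of interior regions. The share in all 17 lists was 12.8% at low tips and 13% at high tips.

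Peaks at the tips were also slightly wider and ranked slightly higher within their lists. Median width was 441 ± 58.5 bp at the tips and 430 ± 65.2 bp in the interior (SD, n = 13), with a log2 ratio of 0.037 ± 0.055, above 0 in 9 of 13 libraries (exact sign-flip permutation test, adjusted p = 0.033). This width difference did not hold under several alternatives. It was -0.021 with lists of equal length (permutation adjusted p = 0.193), and leaving out single libraries or chromosomes gave adjusted p up to 0.104. The mean score percentile was 51.8 ± 1.88 at the tips and 49.9 ± 0.063 in the interior, a difference of 1.85 ± 1.94 points that was above 0 in 11 of 13 libraries (permutation adjusted p = 0.0092), and 3.93 points at equal list length (adjusted p = 0.0013).

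Raised local background was also more frequent among tip peaks. The share of peaks with a local background more than 5% above the genome-wide background of the library was higher at the tips in 17 of 17 lists. It ran from 77.4 to 89.6% at the tips and from 65.1 to 83.6% in the interior. This included the 2 input libraries with a density ratio below 0. They were 250 ng replicate 1 (79.5% at the tips, 75.4% in the interior) and 500 ng replicate 2 (77.4% and 74.3%). The deposited fold itself, relative to that local background, had a median of 4.84 ± 0.675 at the tips and 4.86 ± 0.648 in the interior (SD, n = 13). The part of local background in the density difference was not tested.

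The 10 strongest recurrent tip regions held ranks 12 to 73 among the 9467 regions present in all 17 lists, ordered by median score percentile. Of those 9467 regions, 348 were tip regions. Whether tips hold more of the high ranks than that share was not tested. The highest tip region was chr3:358932-359780, at rank 12. It had a median percentile of 99.9, and the lowest, median and highest folds over the 13 input lists were 7.07, 13.1 and 17.5. Its folds were 8.81 and 9.86 under salt and 13.6 and 13.8 in CK(salt). Its score percentile within a list was 97.02 at the lowest, so it was strong in every list.

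The next was chr8:260425-261279 at rank 16, with folds of 6.02, 13.2 and 17.8 (lowest, median and highest of 13 input lists), 7.70 and 10.1 under salt and 13.9 and 11.9 in CK(salt). The region chr7:29268587-29270166 at rank 21 was broad at 1580 bp, with folds of 5.86, 9.01 and 10.3 over the input lists, 7.69 and 8.86 under salt and 10.1 and 9.71 in CK(salt). The region chr5:227044-228022, at rank 23, had folds of 5.32, 11.2 and 14.0 over the input lists, 8.52 and 9.63 under salt and 12.5 and 11.3 in CK(salt). These 3 lie 227.5 to 428.2 kb from their chromosome ends, away from the edges themselves.

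Then came chr3:66384-67166 (rank 30) and chr4:42724-43723 (rank 35). That on chromosome 4, 43.2 kb from the low end, had the highest median fold of these 10, with 6.95, 15.4 and 23.0 over the input lists, 11.1 and 15.9 under salt and 18.2 and 19.3 in CK(salt). The remaining 4 of the 10 were chr2:35823155-35823969, chr11:28869976-28871100, chr5:377205-378354 and chr2:299979-300673, at ranks 47 to 73. None of the 10 overlapped an RNaseH peak, but only 0.125% of all regions did, so this does not set them apart. Of the 10, 7 lay at low tips, which held 1157 of the 2695 regions.

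The widest tip regions had peaks of moderate median width and a broad peak in at least 1 input list. The region chr4:35398824-35402428 spanned 3605 bp with a peak in 16 lists, and its highest-scored peak in a list had a lowest, median and highest width of 574, 639 and 3072 bp over the input lists. The regions chr8:496123-499502 (3380 bp), chr12:27122331-27125572 (3242 bp), chr12:27108927-27112102 (3176 bp) and chr6:419146-422020 (2875 bp) had a peak in all 17 lists. Their highest-scored peaks had median widths of 450 to 616 bp over the input lists, and the widest such peak measured 2471, 2484, 3054 and 1918 bp in that order. A single peak in 1 input list thus covered most of each of the 5 regions. Both regions of chromosome 12 lie in its high tip, the densest of the 22.

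Regions found at 8 µg were recovered from less DNA slightly more often at the tips, but not when regions of like strength were compared. Both 8 µg lists shared 1931 tip regions and 55073 interior regions. Recovery at the tips was 26.5% at 100 ng, 56.3 ± 4.03% at 250 ng, 63.3 ± 4.94% at 500 ng, 76.5 ± 11.1% at 1 µg, 82.0 ± 7.84% at 3 µg and 82.9 ± 8.46% at 5 µg, and in the interior 24.9%, 56.1 ± 3.29%, 61.5 ± 3.00%, 75.2 ± 11%, 81.0 ± 8.14% and 81.5 ± 9.18% (SD, n = 2 each except 100 ng). Tips minus interior averaged 1.17 ± 0.882 percentage points and was above 0 in 10 of 11 libraries (exact sign-flip permutation test, adjusted p = 0.0026).

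The tip regions entering that comparison ranked higher at 8 µg, with a mean score percentile of 57.8, against 55.7 in the interior. With interior regions weighted to the same score deciles, the difference was -0.474 points (exact permutation p = 0.113), and with 50% reciprocal overlap it was 0.882 points (p = 0.141). Overlap between the 2 lists of an amount was likewise a little higher at the tips, with 87.3% of tip peaks and 85.4% of interior peaks shared at 8 µg. At 250 ng it was 83.5% at the tips and 84.9% in the interior.

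The RNaseH list had a single peak at the tips. It held 123 peaks in all, at a background coverage of 3.10, and 1 of them lay in a tip, at chr9:22733660-22734013, with a fold of 3.88 and 201.0 kb from the high edge. It overlapped 1 of 2695 tip regions (0.0371%), against 0.125% of all regions and 0.128% of interior regions. That region, chr9:22732958-22734056, had a peak in 15 of 17 lists with modest folds, of 2.82, 3.67 and 4.58 (lowest, median and highest of 11 input lists), 4.01 and 4.88 under salt and 3.19 and 3.53 in CK(salt). With RNaseH peaks widened by 1 kb, 2 tip regions were reached. Counts this small do not show that tips and interior differ.

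Both salt lists held fewer tip peaks than both CK(salt) lists, a difference that 2 libraries a group cannot carry past a threshold, and no difference in the ratio of tips to interior was detectable. Salt libraries had 104.5 and 105.4 peaks per Mb at the tips, and CK(salt) libraries 156.6 and 125.8. Both salt libraries lay below both CK(salt) libraries, with a log2 difference of -0.42 (a ratio of 0.747; exact permutation p = 0.333, the smallest that 2 against 2 libraries allow). The lists of the salt libraries are also shorter, with 32861 and 35907 peaks against 51710 and 40592, and with all 4 at equal length the difference was -0.036 (exact permutation p = 1). It was -0.26 without CK(salt) replicate 1.

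The log2 ratio of tip to interior density was 0.25 and 0.13 under salt and 0.18 and 0.21 in CK(salt), which overlap. The difference of means was -0.0049 (exact permutation p = 1), and it took either sign when single libraries were left out, from -0.065 without salt replicate 1 to 0.055 without salt replicate 2. These 4 libraries could not have shown a difference smaller than their spread.

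**Figure D5:**
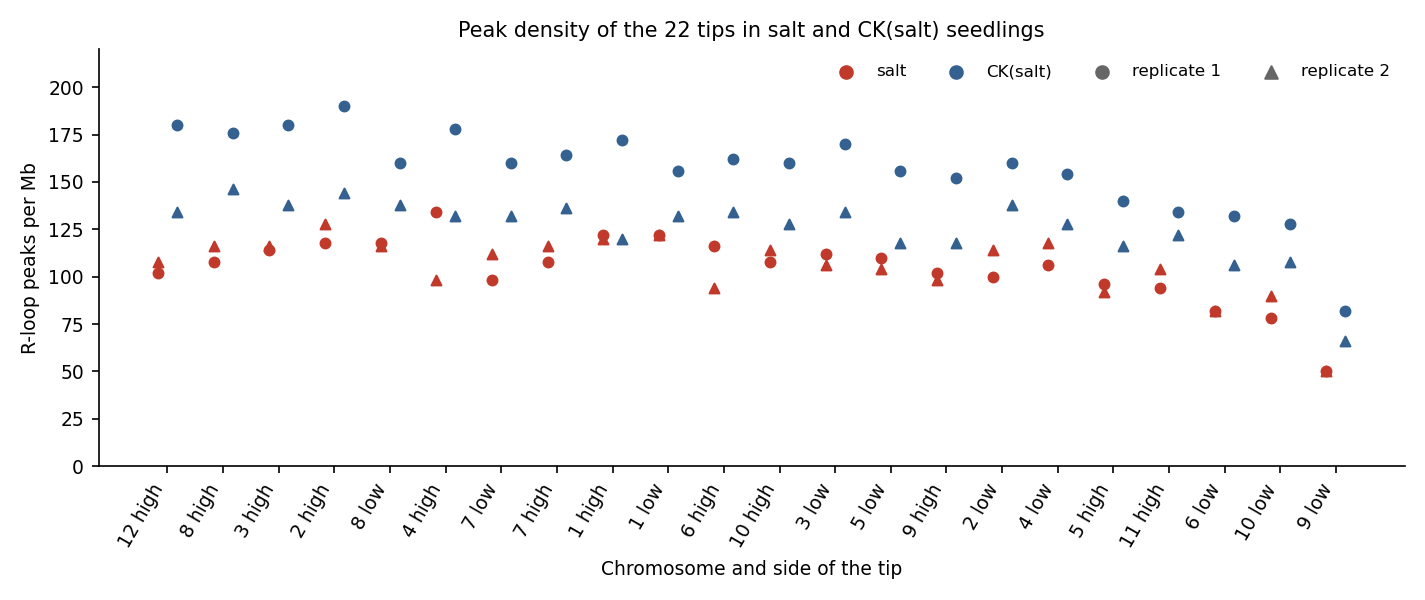
Peak density (peaks per Mb) of each of the 22 tips in the 2 salt libraries (red) and the 2 CK(salt) libraries (blue), with circles for replicate 1 and triangles for replicate 2, in the order of the mean over the input libraries. Both salt points lie below both CK(salt) points at 20 tips, and chromosome 9 low is lowest in both groups, at 50 in salt and 82 and 66 in CK(salt).

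Tip by tip, both salt libraries lay below both CK(salt) libraries at 20 of 22 tips, and 84.5% of the 716 interior windows of 0.5 Mb did the same. The exceptions were the high tips of chromosome 4, with 134 and 98 in salt and 178 and 132 in CK(salt), and of chromosome 1, with 122 and 120 in salt and 172 and 120 in CK(salt). No tip had both salt libraries above both CK(salt) libraries, and neither did any interior window (0%).

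Tip peaks were narrower in both salt lists than in both CK(salt) lists. Median width at the tips was 367 and 327 bp in the salt libraries and 452 and 419 bp in the CK(salt) libraries, a log2 difference of -0.33 (a ratio of 0.796; exact permutation p = 0.333, the smallest possible). Among 802 tip regions with a peak in all 4 lists, the median log2 width difference was -0.36, and 483 (60.2%) were narrower in both salt libraries than in both CK(salt) libraries, against 61.5% of all such regions. Wider regions numbered 9 (1.12%), against 0.953% of all. Narrowing at the tips was thus near the share seen in all regions.

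Of 1263 tip regions with a peak in both CK(salt) lists, 160 (12.7%, exact Clopper-Pearson 95% interval 10.9 to 14.6%, for counting error only) had none in either salt list, against 12.8% of all regions. Of 844 tip regions in both salt lists, 6 (0.711%, 0.261 to 1.54%) had none in either CK(salt) list, against 0.661% of all. Each background share, which includes the tips, lies inside the interval of the tips. The intervals treat regions as independent and do not measure the spread between libraries, so no conclusion is drawn from them. At equal list length 52 were lost and 37 gained (5.47% and 4.57%), against 6.03% and 4.28% of all regions. Leaving out any of the 4 libraries moved the counts to between 232 and 467 lost (16.8 to 27.2%), against 17.6 to 27.8% of all regions, and to between 12 and 74 gained (1.42 to 6.61%), against 1.21 to 7.18% of all.

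Losses fell on the weaker regions. By quintile of strength in CK(salt), from weakest to strongest, 37.8, 19.3, 6.04, 2.40 and 0% of tip regions were lost, and 36.0, 17.9, 8.40, 1.79 and 0.0708% of interior regions. By tip, the lost share ran from 5.45% at chromosome 1 high, 3 of 55 regions, to 21.3% at chromosome 10 low, 10 of 47. All 22 tips lost at least 3 regions, and 5 tips gained any, with no matching count of interior windows given. Each tip held 28 to 70 regions in both CK(salt) lists, and 12.8% of all such regions were lost. These counts thus do not set the tips apart.

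The strongest lost tip region was chr6:30815285-30815829, with folds of 7.15 and 7.36 and score percentiles of 73.4 and 73.5 in CK(salt), and a peak in all 13 input lists. Next were chr3:36091476-36091847 (folds of 7.50 and 8.87 in CK(salt), 7 input lists), chr3:36246361-36246681 (5.82 and 5.79, 11 input lists) and chr2:137896-138216 (6.71 and 6.99, 10 input lists). The 10 strongest lost regions had a lower-of-2 percentile between 57.2 and 73.4. Of these 10, 3 lay at the high tip of chromosome 3, which lost 9 of 65 regions (13.8%), near the 12.8% of all regions.

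Unlike the lost regions named above, the 6 gained regions are all that were called, so their strength is not compared with those. In the salt lists, the lower-of-2 percentile of the 6 lay between 0.860 and 32.1. The strongest was chr4:35090868-35091129, with folds of 3.27 and 4.95 and percentiles of 32.1 and 65.8 in the salt lists. The others were chr1:144054-144306 (folds of 2.82 and 3.92), chr4:35299576-35299845 (2.90 and 5.44), chr11:28630321-28630880 (2.84 and 3.28), chr4:152367-152732 (2.71 and 3.69) and chr10:455287-455566 (2.45 and 4.49). None was absent from the input lists, which held them 1 to 12 times. No matching share is given for the 161 regions gained over the whole genome. Whether the tips differ from other regions in this was not tested.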

How the data were processed

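R-loops were profiled in 18 rice libraries. The submitters' processing notes name Bowtie2 and MACS2 2.1.4; control, duplicates and genome build are not given in the sources used here. The authors deposited 1 peak list per library. Of the deposited values, the score equals 10 times −log10 of the q-value, fold is a ratio of summit pileup to local background, and p-values and q-values are given as −log10, with a lowest −log10 q just above 2 outside the RNaseH list. Lists carry no read counts. Background coverage was solved from fold and p-value (100% of summits within 0.005 on the −log10 scale).

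Regions were merged at 1 bp of overlap and peaks placed by midpoint, with coordinates 1-based. Score percentiles were taken within lists. Per-library ratios were tested with two-sided exact sign-flip permutation tests, with Benjamini-Hochberg adjustment over 8 tests, the salt contrast with exact permutation tests and correlations with 100000 resamples, in Python 3.11.15 with numpy 2.4.6, pandas 2.3.3 and scipy 1.17.1. The density ratio and its sign-flip test were checked on simulated lists with peak positions drawn independently for each list. Real libraries share 1 genome and many regions, which that check did not model. Exact permutation and correlation tests were checked on small cases with known answers. Regions, members and lists were chosen with earlier results of these data known. Regions named are the 10 strongest in all 17 lists, the 5 widest, the outermost per tip, those overlapping an RNaseH peak, all gained and the 10 strongest lost under salt, and the 3 densest and 3 sparsest tips. Columns assigned to no sample numbered 0.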

Additional observations from a re-analysis of the deposited data

Results flagged for a closer look

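The log2 ratio of peak density at the tips over the neighbouring windows was negative in both 250 ng libraries, with a mean of -0.032, whereas both libraries of each group at 1, 3, 5 and 8 µg, salt and CK(salt) were above 0. The log2 ratio of median peak width at the tips over the interior was negative in both 500 ng libraries, with a mean of -0.033, whereas both libraries of each group at 3, 5 and 8 µg, salt and CK(salt) were above 0. Neither difference between groups was tested.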

How the results depend on the processing

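Of 294 alternative values, 249 kept their direction and their side of the threshold, or stayed within 1.5 times for a count. The tally includes 8 alternatives of each salt test, which could not reach the threshold at any setting. Settings that leave out 1 library share all the others, so the tally is not a count of independent checks. Lists of equal length turned the width ratio to -0.021, and equal score deciles turned the recovery difference to -0.474 points. Recovery with 50% reciprocal overlap was 0.882 points. Alternatives added after the data were seen left out each chromosome or averaged libraries within code runs. The width ratio missed the threshold without chromosome 4 (0.027), 7 (0.034), 8 (0.032) or 10 (0.034), and the outer 50 kb ratio without chromosome 6 (-0.033). With 1 mean per code run (7 runs, 5 for recovery), no adjusted p fell below 0.05. Values were density 0.15, neighbours 0.12, coverage 0.17, width 0.040, score 1.67 points, low over high -0.19, outer 50 kb -0.11 and recovery 1.14 points. Sign-flip adjusted p ran from 0.05 to 0.0781. Before adjustment, p was 0.0156 for low over high, the smallest that 7 runs allow. It was 0.031 for density, neighbours, coverage and the outer 50 kb. Recovery had 0.0625, the smallest that 5 runs allow, so it could not pass. Leaving out 1 library gave ranges of 0.13 to 0.15 for density, 0.091 to 0.12 for neighbours, 0.15 to 0.18 for coverage, 0.030 to 0.045 for width (8 of 13 then missed the threshold), 1.68 to 2.19 for score, -0.18 to -0.17 for low over high, -0.11 to -0.094 for the outer 50 kb and 0.978 to 1.32 for recovery. The correlation with input ranged from 0.27 to 0.82 and passed without the 100 ng library (0.82), without it and an 8 µg library (0.85 and 0.82) and at equal length (0.61). Losses under salt were 52 at equal length (5.47%, against 6.03% of all regions), 313 with 1 Mb tips (13.3%, against 12.8%) and 232 to 467 without 1 library (16.8 to 27.2%, against 17.6 to 27.8%). Gains were 3 at −log10 q of at least 5 (0.394%, against 0.382%), 37 at equal length (4.57%, against 4.28%), 12 with 1 Mb tips (0.781%, against 0.661%) and 12 to 74 without 1 library (1.42 to 6.61%, against 1.21 to 7.18%). The salt difference in the end ratio, -0.0049, changed sign to 0.013 at −log10 q of at least 5, 0.055 without salt replicate 2 and 0.012 without CK(salt) replicate 2, and ranged from -0.065 to 0.055 without 1 library. RNaseH overlaps numbered 2 with peaks widened by 1 kb and 2 with 1 Mb tips. The labels do not say that replicate numbers pair salt and CK(salt) libraries. Their same-number deviations correlated at 0.39 over the 22 tips and 0.054 over 740 windows, and same-number libraries have successive codes (12 and 11, 24 and 23). With a replicate block the salt differences at the tips were -0.42 for density, -0.0049 for the end ratio and -0.33 for width. The exact permutation p was 0.5, 1 and 0.5 in that order. Among the input libraries, replicate numbers were only given equal total weight, with signs still flipped by library, so nothing was blocked. That weighting changed no call and is a weak check. In the 100 ng list, where depth and input amount cannot be told apart, a region without a peak is not shown to lack an R-loop. The causes of these changes were not tested.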
